A study of Homo sapiens with 10 samples.

Results

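Each of 5 transfection groups of a human cell line was sequenced as 2 libraries, and the deposited value columns number these libraries 0 and 1. The 5 libraries with index 0 are compared here with the 5 with index 1, each with its partner of the same group, over the 11574 of 20246 features that have a gene name and a mean of at least 1 FPKM over the 10 libraries. FPKM counts sequenced fragments for each kilobase of a transcript and is scaled to the size of the library. The index could not be matched to the replicate numbers 1 and 2 of the sample labels, and the labels tie it to no day, plate or sequencing run, and they leave unstated whether partner libraries were grown as separate cultures. Each p-value therefore measures the spread between these libraries only.

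The cells were HEK293FT, an easily transfected line derived from human embryonic kidney, with integrated Gaussia and Cypridina luciferase reporters. All groups received a transiently transfected plasmid for dCas9-VP64, a Cas9 without nuclease activity fused to an activation domain (59 ng per well). CasVP received it alone, and the groups sgRNA, INT, P4P6 and TOP1 each received 1 of 4 guides against the Gaussia reporter, from a plasmid with the U6 promoter (11.6 ng per well). Wells held 125000 cells at plating, transfection followed after 1 day, and polyadenylated RNA was collected 3 days after transfection. The labels do not say what sets the INT, P4P6 and TOP1 guides apart, and the group TOP1 is not the topoisomerase gene. Of 25 genes typical of this line, 21 had a mean of at least 1 FPKM. The rest were PAX2 (0.926), LHX1 (0.504), SOX11 (0.0205) and PAX8 (0.0120). Leukocyte markers summed to 1.96 to 2.23 FPKM in index 0 and 2.11 to 2.58 in index 1 (7 in the file). The 7 fibroblast and endothelial markers in the file summed to 0.263 to 0.429 FPKM in index 0 and 0.302 to 0.556 in index 1.

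Parallel wells of 1 cell line differ in density, nutrient supply, transfection load and time to harvest, and their RNA then passes through separate extractions and library preparations. Genes under 1 regulator tend to move together between such wells. The tumour suppressor p53 is a transcription factor that responds to DNA damage and other stress, and its targets include cell cycle inhibitors, its own ubiquitin ligase and pro-apoptotic genes. HEK293 derivatives carry viral proteins that bind p53 and the retinoblastoma protein. Messengers for ribosomal proteins begin with a run of pyrimidines, the 5′ terminal oligopyrimidine tract, through which their translation and stability are controlled together. Most messengers of replication-dependent histones end in a stem-loop and lack a poly(A) tail, and some histone genes also yield polyadenylated transcripts.

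Depth did not follow the index. Estimated from the steps that single fragments leave in low FPKM values, the depth of index 0 was 113% of its partner's in CasVP, 111% in INT and 137% in TOP1, but 87.0% in P4P6 and 75.1% in sgRNA. P4P6 index 0 had the lowest estimate, at 69.4% of the depth of CasVP index 0, and sgRNA index 0 was close to it at 70.5%. Guide transcripts were not listed above 0 in every library of their own group. The guide transcript named sgRNA was at 233 FPKM in sgRNA index 0 and listed at 0 in sgRNA index 1, and it was at 109 FPKM in P4P6 index 0 and listed at 0 in the other 7 libraries. INT guide RNA was at 1.38 FPKM in INT index 0 and listed at 0 in INT index 1. The P4P6 guide was at 0.440 and 0.761 FPKM in its own group, and the TOP1 guide at 0.331 and 0.441, index 0 first, and both were listed at 0 elsewhere. RNA made from the U6 promoter by RNA polymerase III carries no poly(A) tail, and polyadenylated RNA was sequenced here. The dCas9-VP64 transcript was at 14.8 and 14.6 FPKM in CasVP, 24.0 and 23.4 in sgRNA, 25.6 and 25.9 in INT, 17.1 and 20.1 in P4P6 and 16.1 and 17.1 in TOP1, index 0 first. Its mean difference between the indexes was -0.05 on the log2(FPKM + 1) scale (SE 0.040, n = 5 pairs; limma, adjusted p = 0.487). The Gaussia reporter was at 23.8 and 22.7 FPKM in CasVP and 787 and 857 in sgRNA, and its mean difference over the 5 groups was 0.01 (SE 0.045; limma, adjusted p = 0.957). The count of features that differed between the indexes is also given without sgRNA and without P4P6. So are some, but not all, of the lists and genes widest in those groups.

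The paired libraries were close in level but shared a pattern of small differences. Within a group, Pearson's r of log2(FPKM + 1) across features was 0.994 in P4P6 and 0.997 to 0.998 in the other groups. The median absolute difference between the libraries of a group was smallest in CasVP, at 0.055 on the log2 scale, followed by sgRNA (0.060), TOP1 (0.067), INT (0.078) and P4P6 (0.099). A difference of at least 1.5-fold in FPKM + 1, in either direction, was found for 11 features of the CasVP libraries (0.0950%), 22 for sgRNA (0.190%), 21 for INT (0.181%), 54 for TOP1 (0.467%) and 72 for P4P6 (0.622%). These are differences between single libraries and carry no test. The difference of index 0 minus index 1 had a Spearman correlation of 0.083 to 0.334 across the 11574 features for the 10 pairings of groups, lowest for INT with TOP1 and highest for CasVP with P4P6. Features of 1 library share its depth and base composition and are not independent, so these correlations are descriptions. With trends in transcript length and GC content removed in each library, they were 0.134 to 0.342 over the 11020 features with annotation. Against the mean of the other 4 groups, the correlation was 0.375 for CasVP, 0.423 for sgRNA, 0.224 for INT, 0.412 for P4P6 and 0.320 for TOP1.

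**Figure D1:**
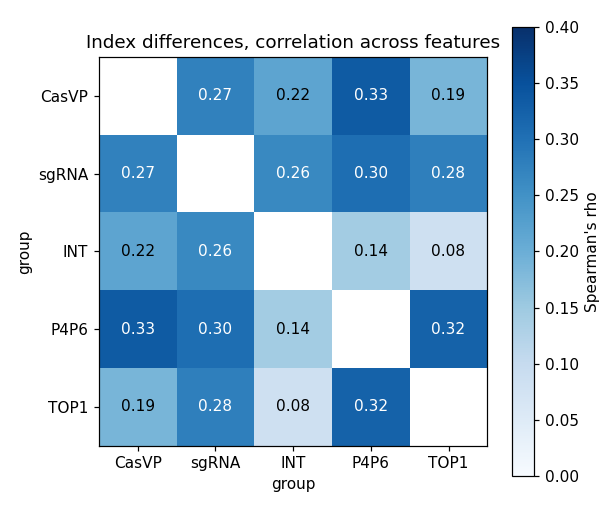
Spearman correlation across 11574 features of the difference between index 0 and index 1 on the log2(FPKM + 1) scale, for each pairing of the 5 groups. The values run from 0.083 (INT with TOP1) to 0.334 (CasVP with P4P6), and INT has the palest row.

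In sign, the most frequent of all patterns over the 5 groups was index 0 above index 1 in every group, with 1275 features (11.0%), followed by index 0 below index 1 in every group, with 1013 (8.75%). The next pattern, index 0 above in INT alone, held 633 features, and the one after it, index 0 below in INT alone, held 561.

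With all libraries in 1 limma fit that kept a mean for each group, 14 features differed between the indexes at an adjusted p under 0.05. Of these, 9 were higher in index 0 (0.0778% of those tested) and 5 were lower (0.0432%). All 14 had the same sign in 5 of 5 groups. They differed by less than 1 log2 unit in every group, and the smallest adjusted p was 0.0296. Another 27 features had an adjusted p between 0.05 and 0.06, and 2271 had an unadjusted p under 0.05. The 14 calls depended on all 5 groups. The same fit gave 2 calls without the CasVP libraries and 3 without P4P6. It gave 0 without sgRNA, INT or TOP1, where 1732, 2294 and 1988 features had an unadjusted p below 0.05. Quantile normalization left 2 calls, both higher in index 0.

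ARRDC3, an alpha-arrestin that links membrane proteins to ubiquitin ligases, had the largest rise of the 9 that passed. In index 0 it was at 4.08 FPKM in CasVP, 7.36 in sgRNA, 7.10 in INT, 5.08 in P4P6 and 7.48 in TOP1, and in index 1 at 3.08, 4.69, 4.88, 2.78 and 4.90 in the same order. The ranges of the indexes overlapped, with CasVP and P4P6 lower than the other groups at both indexes, but index 0 was above its partner in every group. The mean difference was 0.51 (SE 0.054, 95% confidence interval 0.39 to 0.63, n = 5 pairs; limma, adjusted p = 0.0296). Without P4P6, the group with the widest gap, it was 0.46.

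SNAI2 encodes Slug, a zinc finger repressor of epithelial genes. Its index 0 values were 11.6, 15.0, 13.5, 13.3 and 15.6 FPKM in the order CasVP, sgRNA, INT, P4P6 and TOP1, against 9.40, 11.9, 11.2, 8.57 and 12.0 in index 1. P4P6 had the widest gap (0.58) and INT the narrowest (0.24), with a mean of 0.35 (SE 0.049; limma, adjusted p = 0.0468). Without P4P6 the mean was 0.29. SLC43A2, a transporter of large neutral amino acids, was at 3.53, 4.15, 3.71, 4.08 and 4.51 FPKM in index 0 and 2.50, 3.08, 3.08, 2.60 and 2.92 in index 1, in the same order, with no overlap. Its mean difference was 0.38 (SE 0.053; limma, adjusted p = 0.0468).

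ATF3, a stress-induced transcription factor of the ATF and CREB family, was the most abundant of the 9. It was at 92.8, 92.0, 91.7, 86.9 and 95.1 FPKM in index 0 and 84.0, 81.7, 76.4, 75.5 and 83.7 in index 1, so every index 0 library was above every index 1 library. The mean difference was 0.19 (SE 0.025; limma, adjusted p = 0.0468). NUP62CL, a nucleoporin-like gene, differed almost equally in all groups, by 0.24 to 0.29, with a mean of 0.27 (SE 0.027; limma, adjusted p = 0.0296). The other 4 that rose were APBB3 (0.27), an adaptor for the amyloid precursor protein, MSH5 (0.21), a meiotic member of the mismatch repair family, CINP (0.19), a partner of cyclin-dependent kinase 2, and the joint feature RAD51L3,RFFL (0.21), whose fragments cannot be assigned to either gene.

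S100A4, a calcium-binding protein of motile cells, had the largest fall of the 5 that passed. It was at 1.97, 1.47, 1.85, 1.62 and 1.49 FPKM in index 0 and 2.43, 3.13, 4.47, 3.62 and 3.01 in index 1, in the order CasVP, sgRNA, INT, P4P6 and TOP1. No index 0 library reached the lowest index 1 library, and the gap was narrowest in CasVP. The mean difference was -0.68 (SE 0.094, 95% confidence interval -0.89 to -0.47, n = 5 pairs; limma, adjusted p = 0.0468), on a scale that understates change at such low levels.

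HOXC10, a posterior homeobox gene expressed in this line, was nearly constant within each index. It was at 16.4, 16.1, 16.2, 17.3 and 16.3 FPKM in index 0 and 18.8, 18.7, 18.3, 20.2 and 19.1 in index 1, a mean difference of -0.20 (SE 0.028; limma, adjusted p = 0.0468). The joint feature JUP,KRT19, which covers junction plakoglobin and keratin 19, fell by 0.24 on the log2 scale. The remaining pair, HIST1H2BD and HIST1H2BK, encode histone H2B and are described with the histones.

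**Figure D2:**
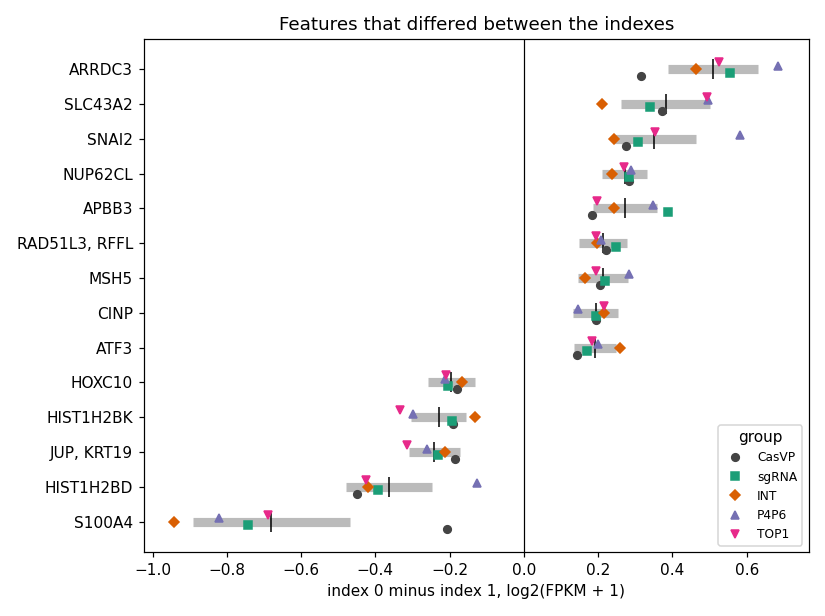
Difference of index 0 minus index 1 on the log2(FPKM + 1) scale for the 14 features with an adjusted p under 0.05 (limma). Points are the 5 groups, black ticks the means and grey bars the 95% confidence intervals; every point lies on the same side of 0 as its mean, from S100A4 (mean -0.68) to ARRDC3 (mean 0.51).

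Most p53 target genes were higher in index 0. Of 28 tested members, 18 were higher in index 0 in all 5 groups and 1 was lower in all 5, beside 11.0% and 8.75% of all features. The median of the list was 0.14, against 0.00 for all features, and by group it was lowest in CasVP (0.07) and highest in P4P6 (0.25), with 0.12 in sgRNA and 0.13 in both INT and TOP1. None of the 28 passed over all features tested (limma), and 22 had an unadjusted p under 0.05, beside 2271 of all 11574 features. Without the P4P6 libraries the median was 0.10. The counts of 18 and 1 were the same after quantile normalization, and 19 and 1 with length and GC trends removed.

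FDXR, a mitochondrial reductase, had the largest difference of the list. It was at 13.4, 19.4, 17.0, 18.1 and 19.8 FPKM in index 0 and 11.8, 15.9, 15.1, 10.1 and 14.4 in index 1, in the order CasVP, sgRNA, INT, P4P6 and TOP1. P4P6 index 1 was the lowest of the 10 libraries, and the mean difference was 0.36 (SE 0.081; limma, adjusted p = 0.0784), or 0.26 without P4P6. PHLDA3, an inhibitor of AKT signalling, differed by 0.29 (adjusted p = 0.086), and PLK3, a stress-responsive kinase, by 0.27 (adjusted p = 0.13) with TOP1 near 0. Without P4P6 the PHLDA3 difference was 0.21. The members that follow were chosen after their values were seen. CDKN1A, the cell cycle inhibitor p21, was at 33.5, 41.3, 43.6, 39.0 and 40.2 FPKM in index 0 and 29.6, 38.1, 37.0, 32.3 and 35.3 in index 1 (mean difference 0.19, SE 0.029; limma, adjusted p = 0.0527). MDM2, the ubiquitin ligase of p53, was at 55.8, 68.4, 66.7, 66.4 and 69.8 FPKM in index 0 and 52.6, 58.4, 62.0, 47.5 and 61.5 in index 1 (mean difference 0.21, SE 0.051; limma, adjusted p = 0.087). Without P4P6 the MDM2 difference was 0.15. RPS27L, a ribosomal protein paralogue induced by p53, differed by 0.24 (adjusted p = 0.0669). Not every target followed. CCNG1, cyclin G1, had a mean difference of 0.00, and PPM1D, the phosphatase that ends p53 signalling, was lower in index 0 in all 5 groups by a mean of 0.07, from 14.7 to 15.9 FPKM in index 0 and 15.8 to 16.8 in index 1.

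**Figure D3:**
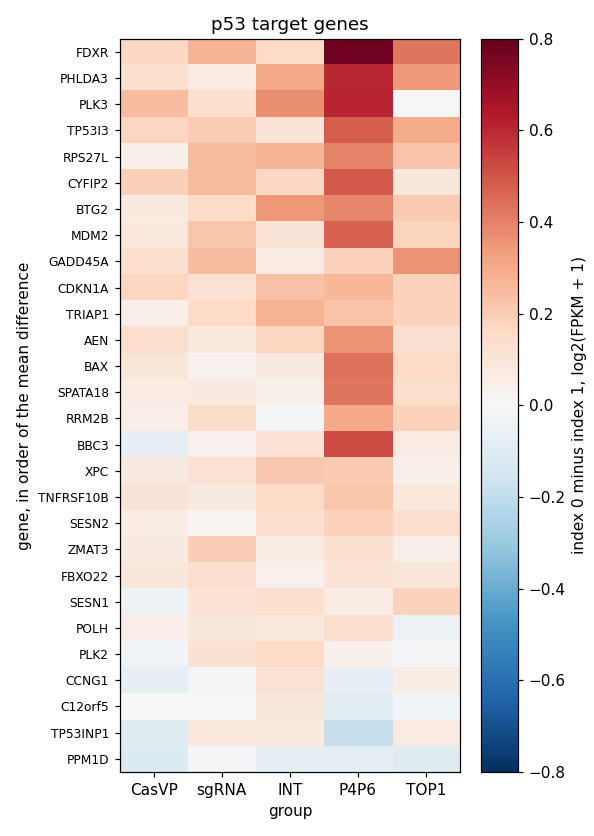
Difference of index 0 minus index 1 on the log2(FPKM + 1) scale for 28 p53 target genes (rows, in order of the mean difference) in 5 groups (columns); red is higher in index 0 and blue lower. The upper rows are red in all groups and deepest in P4P6 (FDXR 0.78), and PPM1D in the bottom row is blue throughout.

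Genes of the G1/S transition and DNA replication, many of them E2F targets, were mostly higher in index 0 as well, by less. Of all features, 11.0% were higher in index 0 in all 5 groups and 8.75% were lower in all 5. Of the 42 members of this list, 20 were higher in all 5 and 1 was lower in all 5. Their median was 0.06, between 0.04 in TOP1 and 0.12 in P4P6 (0.05 over the other groups without P4P6). None passed over all features tested (limma), and 21 had an unadjusted p under 0.05, beside 2271 of all 11574 features. RRM2, the regulated subunit of ribonucleotide reductase, was at 52.3, 59.2, 54.9, 58.2 and 61.6 FPKM in index 0 and 47.1, 51.7, 50.5, 41.4 and 53.7 in index 1 (mean difference 0.23, SE 0.049; limma, adjusted p = 0.075), and without P4P6 the difference was 0.16. LIG1, the replicative DNA ligase, differed by 0.22 (adjusted p = 0.0669) and CCNE2, cyclin E2, by 0.22 (adjusted p = 0.123). TYMS, thymidylate synthase, differed by 0.20, PCNA, the sliding clamp, by 0.06 and MCM6, a helicase subunit, by -0.01; these 3 were chosen after their values were seen. The G2/M and mitosis list was more even, with 5 of 48 members higher in all groups, 7 lower and a median of 0.00.

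Histone genes were mostly lower in index 0. Of 60 replication-dependent histone genes listed, 54 were in the file and 20 passed the filter on low values. Of the 20, 2 fell (limma), beside 0.0432% of all features tested. In all 5 groups, 7 of the 20 were lower in index 0 and 0 were higher, beside 8.75% and 11.0% of all features. The median of the mean difference was -0.12, and by group it was -0.34 in sgRNA, -0.15 in INT, -0.12 in CasVP, -0.06 in P4P6 and 0.02 in TOP1. Without the sgRNA libraries it was -0.04. HIST1H2BD was at 7.70, 6.74, 6.08, 7.08 and 5.59 FPKM in index 0 and 10.9, 9.17, 8.47, 7.81 and 7.85 in index 1, in the order CasVP, sgRNA, INT, P4P6 and TOP1, with no overlap and the narrowest gap in P4P6. Its mean difference was -0.36 (SE 0.051; limma, adjusted p = 0.0468). HIST1H2BK, by level the leading member, was at 132, 115, 110, 106 and 109 FPKM in index 0 and 151, 132, 121, 131 and 138 in index 1 (mean difference -0.23, SE 0.033; limma, adjusted p = 0.0468). HIST1H2AC differed by -0.27 (adjusted p = 0.0527) and HIST1H4H by -0.31 (adjusted p = 0.0622). H1F0, a replication-independent linker histone whose messenger is polyadenylated and which was chosen after its values were seen, was at 249, 206, 204, 246 and 206 FPKM in index 0 and 283, 244, 253, 268 and 231 in index 1 (mean difference -0.20, SE 0.030; limma, adjusted p = 0.0527). As polyadenylated RNA was sequenced, these values cover the polyadenylated share of histone transcripts only.

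The genes for cytoplasmic ribosomal proteins were slightly higher in index 0. Of 75 features, 34 were higher in all 5 groups and 1 was lower in all 5, beside 11.0% and 8.75% of all features. The median of the 75 was 0.07, from 0.03 in CasVP to 0.11 in INT. None passed over all features tested (limma), and 35 had an unadjusted p under 0.05, beside 2271 of all 11574 features. Quantile normalization removed this direction: 2 of the 75 were then higher in all 5 groups, 3 were lower and the median was 0.01. That method gives every library the same set of values. A shift shared by many of the highest features is taken out by design, so this setting cannot decide on the direction. After median-of-ratios rescaling the counts were 33 and 0, and with length and GC trends removed they were 27 and 0. Ribosomal proteins made up 27.0 to 30.7% of summed FPKM over named features, and that share was higher in index 0 in each group (29.6 against 29.3% in CasVP, 30.7 against 29.9% in sgRNA, 29.4 against 28.4% in INT, 28.2 against 27.0% in P4P6 and 30.6 against 30.0% in TOP1). The summed FPKM of the other named features was also higher in index 0 in each group, as in CasVP (401853 against 400468) and INT (401283 against 393112). Over 11020 annotated features, the mean difference had a Spearman correlation of 0.094 with level. The part of level in the rise of this list was not tested. RPL12, of the large subunit, was at 2381, 2575, 2382, 2132 and 2576 FPKM in index 0 and 2245, 2398, 2106, 1830 and 2494 in index 1 (mean difference 0.13, SE 0.031; limma, adjusted p = 0.0874). The mitochondrial ribosomal proteins had 7 of 67 higher in all groups and 3 lower, with a median of 0.03.

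The 30 bases around the annotated start of 5 ribosomal protein genes show the tract that sets this family apart. They are the 5 with the largest mean difference among the 24 that were higher in index 0 in all groups and hold the tract. Sequences run 5′ to 3′ from 20 bases before the start to 10 from it, are taken from RefSeq (GRCh38.p14), and have the tract, a C at the start and the C or T bases that follow it without a break, in capitals.
RPL12, chr9:127451397-127451426, minus strand: cttgtccgcgcgatttccggCCTCTCggct
RPL36, chr19:5690275-5690304, plus strand: gagttccgcgcggcgccagcCCTTCCgcca
RPS19, chr19:41860235-41860264, plus strand: gcccgggaaaccccgtcgttCCCTTTCCCC
RPS18, chr6:33272055-33272084, plus strand: gatatcgcgtcacttccgctCTCTCTTCCa
RPS16, chr19:39435940-39435969, minus strand: ccagggtggcccctagctttCCTTTTCCgg
The window ends after 10 bases of transcript, so the tract of RPS19 may run on. A start with C and at least 4 further C or T bases, searched on the gene's own strand at the annotated start alone, was found in 45 of 59 ribosomal protein genes with a RefSeq window (76.3%), in 668 of 9077 other tested genes (7.36%) and in 889 of 13865 genes of the file with a window (6.41%). Outside the family, 10.5% of genes with the tract and 10.5% of genes without it were higher in index 0 in all 5 groups, with medians of 0.01 and 0.00. Within the family, 53.3% of the 45 genes with the tract and 42.9% of the rest of the 59 were higher in all 5. These are matches of letters at annotated starts, and the starts used in these cells were not measured.

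Among the other lists, that of metallothioneins, which bind zinc and copper, and the zinc exporter SLC30A1 had the highest median, 0.27, but only 3 features were tested. They were MT1X, MT1F (0.27, adjusted p = 0.109) and SLC30A1 (0.08, adjusted p = 0.566). MT1X was at 12.8, 16.4, 15.2, 13.7 and 14.3 FPKM in index 0 and 11.4, 14.2, 11.6, 8.97 and 12.5 in index 1 (mean difference 0.29, SE 0.058; limma, adjusted p = 0.072). For the counts that follow, 11.0% of all features were higher in index 0 in all 5 groups and 8.75% were lower. Calls covered 0.0778% of all features higher in index 0 and 0.0432% lower (limma). In the list of genes that respond to glucose through MondoA, ARRDC3 passed and ARRDC4 differed by 0.29 (adjusted p = 0.072). In that list 2 of 7 were higher in all groups, the median was 0.05, and the next largest difference was 0.08, in HK2. The amino acid response list had 9 of 39 members higher in all groups and 2 lower, with ATF3 as the member that passed and SLC38A2, an amino acid transporter, at -0.14 (adjusted p = 0.072). SR proteins and hnRNPs, which control splicing, had 7 of 22 higher and 1 lower (median 0.03, and 0.01 after quantile normalization). Sterol synthesis genes had 0 of 24 higher and 4 lower in all groups, with a median of -0.04 that was positive in INT (0.05) and lowest in P4P6 (-0.13). A list of tubulins, actins and actin-binding genes, which does not hold ACTA2, again had a median above 0 in INT (0.07) and below in P4P6 (-0.13). In all groups, 0 of its 22 members were higher and 2 were lower (9.09%), close to the 8.75% over all features. The 2 were the actin-binding genes CNN2, a calponin (-0.27, adjusted p = 0.0535), and CFL1, cofilin, which was chosen after its values were seen (-0.11). Without the P4P6 libraries the medians of these lists were -0.02 and -0.01. Proteasome subunits, respiratory chain genes, interferon-stimulated genes, heat shock genes, NF-kappaB targets, NRF2 targets, fatty acid synthesis, extracellular matrix and KRAB zinc finger genes had medians between -0.01 and 0.02. No gene of these 9 lists passed between the indexes (limma). YAP and TAZ targets (0.05), the unfolded protein response (0.03), genes typical of HEK293 cells (0.03), immediate early genes (0.01) and hypoxia and glycolysis (-0.02) completed the lists with at least 3 tested members. Of these, the HEK293 list held HOXC10 and the immediate early list held ATF3 as the members that passed.

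**Figure D4:**
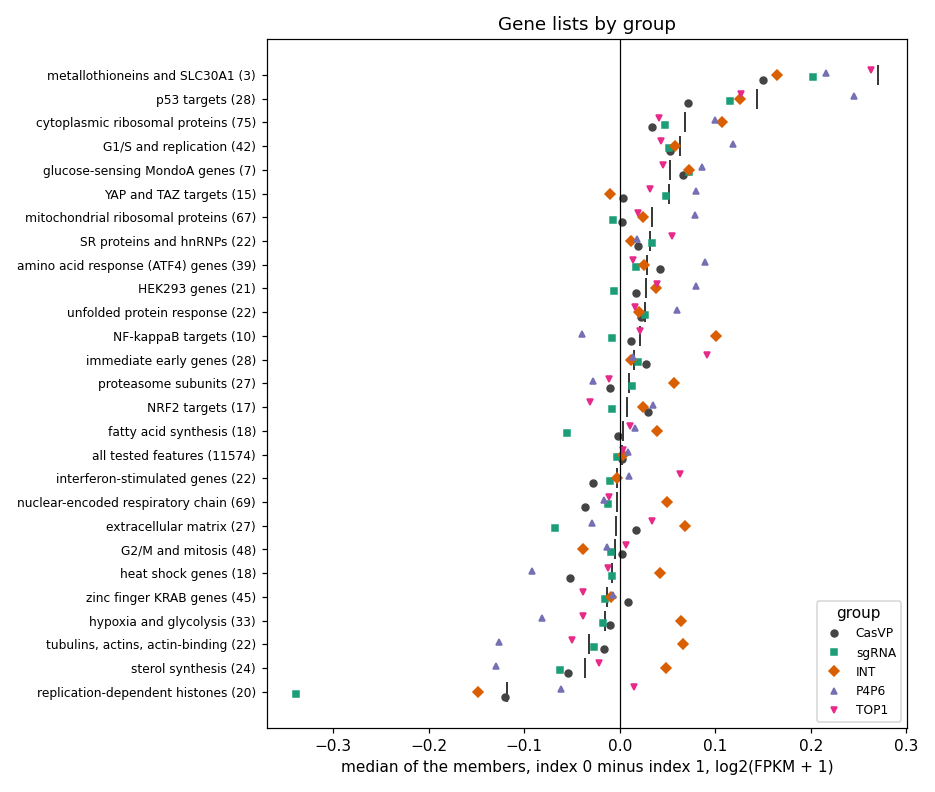
Median over the members of each gene list (number tested in parentheses) of the difference of index 0 minus index 1 on the log2(FPKM + 1) scale, by group (points); black ticks are the medians of the mean difference. p53 targets, cytoplasmic ribosomal proteins and G1/S genes lie right of 0 in all 5 groups. So do the unfolded protein response, amino acid response, immediate early, MondoA, metallothionein, and SR protein and hnRNP lists. Histones lie left of 0 in all but TOP1 (0.02).

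Of the genes often used as references, HPRT1, GAPDH and TBP differed little, though not always without a shared sign. HPRT1 differed by 0.065 between the indexes (adjusted p = 0.225), GAPDH by 0.05 (adjusted p = 0.351) and TBP, the TATA-binding protein, by 0.03 (adjusted p = 0.601), all by limma. Index 0 was higher in all 5 groups for HPRT1, in 4 for GAPDH and in 3 for TBP. The HPRT1 difference was close to the median of the cytoplasmic ribosomal protein list (0.068). After quantile normalization the GAPDH difference was -0.03. ACTB, also used as a reference, was tested only within the joint feature ACTB,ACTG1. That feature was lower in index 0 in all 5 groups, with a mean difference of -0.13 (limma, adjusted p = 0.352). Its difference was -0.53 in INT and between -0.03 and -0.02 in the other groups. AMOT, an angiomotin of the Hippo pathway, and ACTA2, smooth muscle actin, were chosen after their values were seen. AMOT was at 168, 200, 190, 193 and 202 FPKM in index 0 and 135, 168, 151, 109 and 168 in index 1, in the order CasVP, sgRNA, INT, P4P6 and TOP1 (mean difference 0.40, SE 0.073; limma, adjusted p = 0.0669). ACTA2 differed by 0.42 (SE 0.084; limma, adjusted p = 0.072). Without P4P6 the differences were 0.29 for AMOT, which then passed (limma, adjusted p = 0.0149), and 0.31 for ACTA2 (adjusted p = 0.085). In both genes P4P6 index 1 was the lowest library.

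Some features departed in 1 group only. Each group's difference was tested against the mean difference of the other 4 (limma on the 5 differences). As the tested arm is a single value, the spread comes from the other 4 groups, and the lone difference is assumed to vary as they do. ELOVL5, an elongase of polyunsaturated fatty acids, was at 349 FPKM in P4P6 index 0 and between 55.5 and 62.6 in the other 9 libraries. Its difference in P4P6 was 2.57 log2 units above that of the other groups (SE 0.058; limma, adjusted p = 1.21e-06), and it was the single call in P4P6 (0.00864%), where 1577 features had an unadjusted p under 0.05. P4P6 index 0 was also the library outside the sgRNA group that held the sgRNA guide transcript. It had the lowest depth estimate of the 10, close to that of sgRNA index 0. The part of the guide transcript and of depth in the result was not tested.

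INT had 2 calls (0.0173%). The joint feature ACTB,ACTG1 was at 618 FPKM in INT index 1 and between 364 and 427 in the others (-0.51, SE 0.047; limma, adjusted p = 0.038). The feature named ACTG1 alone, chosen after its values were seen, was at 686 in INT index 0 and 608 in INT index 1, the opposite order. The call of the joint feature was lost without the CasVP (adjusted p = 0.286), sgRNA (0.372) or TOP1 (0.193) libraries.

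TOP1 had 3 calls (0.0259%), all higher in index 0. PCSK1N, an inhibitor of a prohormone convertase, was at 10.3 FPKM in TOP1 index 0 and 4.20 in index 1, while index 0 was the lower library in the other 4 groups, where values lay between 4.49 and 12.0. Its difference was 1.49 above the others (SE 0.14; limma, adjusted p = 0.0239), and with length and GC trends removed it was 0.95 (adjusted p = 0.078), where HOXA6 was at 1.07 (adjusted p = 0.078) and CFD, still called, at 1.40 (adjusted p = 0.0331). CFD, complement factor D, was at 9.58 and 3.20 FPKM in TOP1, the highest and the lowest of the 10 libraries (1.54 above the others, SE 0.15; limma, adjusted p = 0.0239). HOXA6, a homeobox gene chosen after its values were seen, was at 57.6 and 27.9 FPKM in TOP1, again the highest and the lowest (1.09, SE 0.12; limma, adjusted p = 0.0386). The adjusted p of all 3 was 0.0552 without the CasVP libraries. Without the sgRNA libraries it was 0.0635 for CFD and 0.0711 for HOXA6, and without INT it was 0.0506 for PCSK1N. The 100 features most raised in TOP1 index 0 relative to the other groups had a median GC content of 65.1% and a median length of 1893 bases, against 48.3% and 3527 bases for all 11020 annotated features. In the other 4 groups the median GC content of the corresponding 100 was 48.3 to 56.1%. The 100 most lowered in index 0 had a median of 59.1% in INT, 57.8% in sgRNA, 56.5% in CasVP, 54.3% in TOP1 and 48.8% in P4P6. GC content above that of all features was thus found in most of these sets. TOP1 index 0 was also 137% as deep as its partner, and the part of GC content and depth in the TOP1 calls was not tested beyond the fit with the trends removed.

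CasVP had 1 call (0.00864%), AFF1, a scaffold of the super elongation complex. It was at 18.6 FPKM in CasVP index 0 and 7.29 in index 1, at 14.1 and 14.9 in P4P6 and between 6.42 and 7.95 elsewhere (1.22 above the other groups, SE 0.11; limma, adjusted p = 0.0261). The adjusted p was 0.146 without the sgRNA libraries, 0.0578 without INT, 0.109 without P4P6 and 0.0858 without TOP1. No feature was called in sgRNA (0%) by limma, with 197 at an unadjusted p under 0.05; no other tool was run.

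**Figure D5:**
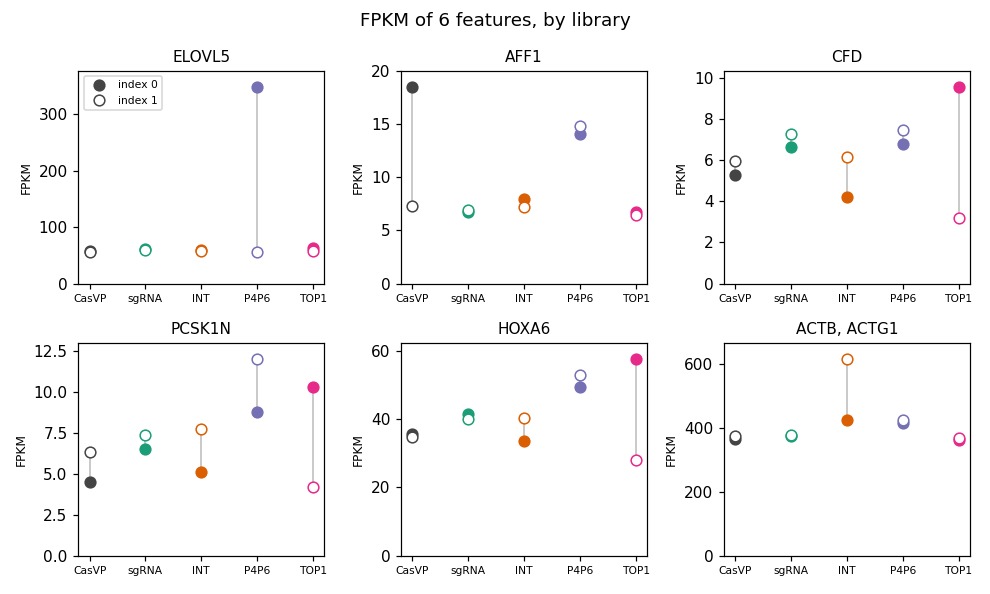
FPKM of 6 features in the 10 libraries, with index 0 as filled and index 1 as open circles and a line joining the libraries of a group; axes are linear. ELOVL5 stands at 349 in P4P6 index 0 with all others near 60, and CFD and HOXA6 have their highest and lowest library in TOP1.

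Several other features differed widely within some groups. MIF, a cytokine with a very short messenger, was at 110 and 30.7 FPKM in TOP1 and at 45.0 and 85.0 in INT, and its difference ranged from -0.90 to 1.81. NEDD4L, a ubiquitin ligase, was at 14.1 and 5.16 FPKM in TOP1, 14.2 and 9.11 in sgRNA and 10.1 and 7.02 in P4P6, and between 4.55 and 4.75 in CasVP and INT. RPS20, of the small ribosomal subunit, was at 1541 FPKM in CasVP index 1 and between 839 and 1093 in the others. TFRC, the transferrin receptor, was at 19.3 and 41.3 FPKM in P4P6, the lowest and the highest of the 10 libraries (-0.90 against the other groups; limma, adjusted p = 0.0624). These features passed neither the test over all groups nor that of 1 group against the others.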

How the data were processed

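The authors deposited FPKM per feature and library. The build hg19 and the tools Cuffdiff 2.2.1 and TopHat2 2.0.13 are named, per the submitters' processing notes; the annotation, scaling and strand setting are not given in the sources used here. The 945 features without a name (2.31 to 2.47% of summed FPKM) were left out. Of the tested features, 232 share a name with another and 509 name several genes.

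Here a pseudocount of 1 was added and log2 values were tested with limma 3.58.1 (R 4.3.3) with an intensity trend: index 0 minus index 1 with a mean per group (4 residual degrees of freedom), each pair's difference against the other 4 (3 residual degrees of freedom), and groups by an F test. P-values are two-sided, Benjamini-Hochberg adjusted over all 11574 features. Fragment totals are unknown, so depth is relative, estimated from 830 or fewer low features per library. Lists are described by counts and medians. Length and GC content came from GENCODE 29. The gene naming rule takes constructs, up to 12 features each way that passed with 1 sign in all groups, up to 3 each way per group by pair difference, the 2 smallest adjusted p against other groups, up to 3 per list, and reference genes. Members, lists and alternatives were chosen with earlier results of these data known. Some features are not reported here.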

Additional observations from a re-analysis of the deposited data

Results flagged for a closer look

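For 6 features described here the difference between index 0 and index 1 in 1 group departed from that in the other 4 groups by a test of the departure itself (limma, adjusted p under 0.05). The tested arm is a single difference, and the spread comes from the other groups. Values are log2 units relative to the mean difference of the other groups. In CasVP it was AFF1 at 1.22 (adjusted p = 0.0261). In INT the joint feature ACTB,ACTG1 departed by -0.51 (adjusted p = 0.038). In P4P6 it was ELOVL5 at 2.57 (adjusted p = 1.21e-06). In TOP1 they were CFD at 1.54 (adjusted p = 0.0239), PCSK1N at 1.49 (adjusted p = 0.0239) and HOXA6 at 1.09 (adjusted p = 0.0386). ELOVL5 passed under every alternative run that kept the P4P6 libraries, and the other 5 lost the call under at least 1 alternative. With 2 libraries in a group, no single library can be tested as an outlier within its group.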

How the results depend on the processing

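The 14 features that differed between the indexes became 36 with a mean of at least 5 FPKM, 38 with length and GC trends removed, 39 with robust empirical Bayes, 246 with library weights, 2 after quantile normalization, and 0 with no filter, with no trend or with no replicate block, that is, with the libraries not paired by group. Leaving out a group's libraries gave 0 to 3. P4P6 index 0 has the lowest depth estimate, so the planned fit without the shallowest pair is the one without P4P6. The estimate for sgRNA index 0 is close to it, and the fit without sgRNA gave 0. All 14 kept their direction wherever they were tested, and 11 of them were called again with length and GC trends removed and 12 at the higher minimum. The 7 departures of 1 group became 2 with no trend and 11 with robust empirical Bayes, and 2 to 19 without another group's libraries, the highest without P4P6. Features at 1.5-fold within a group, 180 in all, became 492 with a pseudocount of 0.1 and 74 at the higher minimum.

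The 5 groups differed in 3 features by an F test. With the index as a replicate block this became 1288. The difference between the libraries of a pair correlated between groups at 0.083 to 0.334 (Spearman), below 0.1 for INT with TOP1, and at 0.134 to 0.342 with length and GC trends removed. As the labels tie the index to nothing shared and 1 of 10 correlations was under 0.1, the F test without the block was kept. With the trends removed, none of the correlations was that low. Without the block, index differences shared by the groups stay in the spread within groups. The count of 3 depends on this choice and does not measure how many features differ among the groups. The F test called 5 with no filter, 5 at the higher minimum, 25 after quantile normalization, 0 with length and GC trends removed (1383 at an unadjusted p under 0.05), 1 with no trend, and 1 to 526 without 1 library, the highest without P4P6 index 0. The causes of these changes were not tested.

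Mean differences that changed sign did so in 18 cases, none of them of a result that had passed. After quantile normalization GLuc_Reporter was at -0.00735, CLuc_Normalizer at 0.0104, GAPDH at -0.0259 and CCNG1 at -0.00992. With library weights GLuc_Reporter was at -0.0201, CLuc_Normalizer at 0.0562 and CCNG1 at -0.00792. CLuc_Normalizer was at 0.00557 with a pseudocount of 0.1, and ARRDC3 in INT relative to the other groups at 0.0123 with length and GC trends removed. Leaving out a group's libraries gave -0.0466 to 0.0376 for GLuc_Reporter, -0.0435 to 0.0718 for CLuc_Normalizer, -0.00182 to 0.148 for TXN, a thioredoxin, -0.0688 to 0.251 for HOXA6, -0.00369 to 0.0476 for ACTG1 and -0.0253 to 0.0229 for CCNG1.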
